A study of Caenorhabditis elegans with 4 samples.

Results

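The genes described here encode aminoacyl-tRNA synthetases and translation initiation factors of Caenorhabditis elegans. They were taken from the deposited gene table by a name pattern that uses no measured value, though it was chosen with earlier results of these data known. They comprise 52 of the 37812 gene rows: 31 synthetase genes and 21 initiation factor genes. All 52 were tested by the authors. RNA was measured in 4 libraries of early embryos of the wild-type strain N2, a mixture from the 1-cell to the 350-cell stage that was released by bleaching from adults fed for 72 h after synchronization. In 2 libraries sig-7 had been targeted by RNAi (sig-7 RNAi), and 2 came from control RNAi with L4440, the empty RNAi vector. SIG-7 belongs to the cyclophilins, carries an RNA-binding motif and is known from work on transcription by RNA polymerase II, and the comparison asks which transcripts differ in level when it is depleted.

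Each synthetase joins an amino acid to its tRNA, in the cytosol or in mitochondria, and each amino acid has its own enzyme. Initiation factors bring the small ribosomal subunit to an mRNA. eIF1 and eIF1A keep the scanning subunit open until a start codon is met, eIF3 is a scaffold of many subunits on it, and eIF4E, eIF4G and eIF4A form the complex that binds the mRNA cap and unwinds the leader. eIF5A was first named as an initiation factor and carries the hypusine residue that helps ribosomes through difficult stretches. Early embryos live largely on maternal mRNA, so these proteins and their mRNAs are supplied in large part by the mother.

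The values are FPKM, a level per transcript length and per mapped fragment, with 1 pooled value per group, so the spread between libraries and their depth are unknown. The words rose, fell and called are kept for genes with a q under 0.05 in the authors' deposited table. The deposited p-values equalled the 2-sided normal p of the deposited test statistic to within 2.69e-06 in 10098 rows. The ratio of the deposited log2 ratio to that statistic is therefore given below as the implied standard error (SE) of the log2 ratio, on the understanding that the statistic is a log ratio over its standard error. sig-7 itself was at 8.72 FPKM in sig-7 RNAi and 39.8 FPKM in control RNAi. Of 7 maternal RNAs and 6 early zygotic genes, all were detected in both groups (4.77 to 411.9 FPKM in sig-7 RNAi, 3.13 to 274.2 FPKM in control RNAi), while 9 genes of sperm, adult intestine and adult cuticle reached no more than 0.0618 FPKM in sig-7 RNAi and 0.0298 FPKM in control RNAi, with the 4 sperm genes listed at 0 in both. Among the maternal and early zygotic genes, nos-2 rose (94.6 FPKM in sig-7 RNAi, 55.5 FPKM in control RNAi, deposited q = 0.00933). Both end-1 (4.77 and 12.2 FPKM, q = 9.50e-04) and skn-1 (14.0 and 23.1 FPKM, q = 0.0340) fell, and the others were not called. Over all tested rows, 11.2% rose and 17.3% fell. Whether the mixtures of stages matched between the groups was not tested. The FPKM sum over all rows in sig-7 RNAi was 1.69 times that in control RNAi. Over tested rows between 10 and 200 FPKM in control RNAi with a locus shared by at most 5 gene rows, the ratio of sums was 1.23. The highest value of any tested row was 112113 FPKM in sig-7 RNAi and 33284.8 FPKM in control RNAi. As deposited, 48.6% of all tested rows were higher in sig-7 RNAi. Which rows make the totals differ, and which scaling is right, was not tested. Under equal totals each log2 ratio would lie 0.754 lower, so that every fold by which a gene was lower in sig-7 RNAi becomes 1.69 times as large. On the log2((FPKM + 1)/(FPKM + 1)) scale the median of all tested rows would then be -0.55, against -0.03 without that scaling.

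Most synthetase and initiation factor genes were not called. Among the 52, 3 rose (eif-1.A, iff-1 and hars-1) and 3 fell (ifg-1, iff-2 and ears-1) in the authors' deposited table. That is 11.5%, against 28.4% of all 10703 tested rows, of which 11.2% rose and 17.3% fell. The calls depend on the authors' scaling. With each deposited log2 ratio shifted to equal totals, divided by its implied SE and held to the statistic of 2.45 at the deposited call limit, 0 of the 52 passed as higher and 21 as lower, against 0.614% and 36.1% of the 10098 rows with an implied SE. This alternative was chosen after the data were seen. ifg-1, iff-2 and ears-1 were among those 21, while eif-1.A, iff-1 and hars-1 had ratios above 0 that passed no such limit. By family as deposited, 2 of 31 synthetase genes (6.45%) and 4 of 21 initiation factor genes (19%) were called. In bulk embryos, fewer cells of a type and less RNA per cell cannot be told apart. The labels name no separate cultures behind the libraries, so the spread behind the deposited q may be technical.

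**Figure D1:**
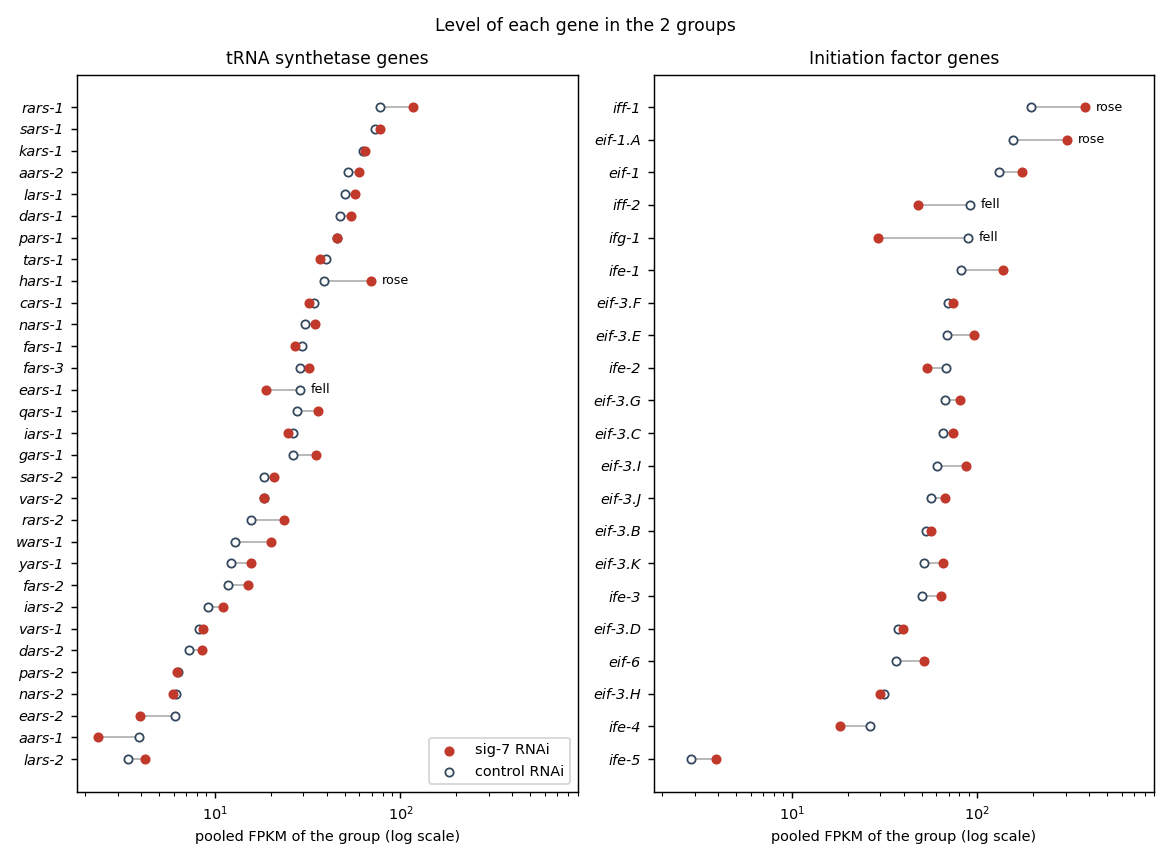
Pooled FPKM (log axis) of the 31 synthetase genes and the 21 initiation factor genes in sig-7 RNAi (filled red points) and control RNAi (open points), in order of the control level. The 6 genes with a deposited q under 0.05 carry the word rose or fell, and ifg-1 has the longest line, with its filled point at 29.1 FPKM in sig-7 RNAi and its open point at 89.0 FPKM in control RNAi.

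Of the genes of the 2 factors that keep the small subunit scanning, 1 rose, beside 11.2% of all tested rows. eif-1.A, the gene of eIF1A (on chromosome IV of ce10, 4810928 to 4811672), had 304.4 FPKM in sig-7 RNAi and 155.1 FPKM in control RNAi, 1.96-fold higher, with a deposited log2 ratio of 0.97 (implied SE 0.21, q = 6.17e-05). It was the second highest initiation factor gene in both groups. eif-1, the gene of its partner eIF1, was at 174.8 FPKM in sig-7 RNAi and 130.3 FPKM in control RNAi, a deposited log2 ratio of 0.42 (implied SE 0.29, q = 0.305) that did not pass the test. eif-6, whose product keeps the large ribosomal subunit from joining too early, was at 51.4 FPKM in sig-7 RNAi and 36.6 FPKM in control RNAi (q = 0.132 in the authors' deposited table). With the groups scaled to equal totals, eif-1.A was 1.16-fold higher in sig-7 RNAi, a shifted log2 ratio of 0.22 that is near its SE of 0.21.

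None of the 10 eIF3 subunit genes passed the test in the authors' deposited table, against 28.4% of all tested rows. eif-3.B, eif-3.C, eif-3.D, eif-3.F and eif-3.H were among the 21 that passed as lower with equal totals. Levels of the 10 lay between 30.0 and 96.4 FPKM in sig-7 RNAi and between 31.5 and 69.3 FPKM in control RNAi. The members nearest to a call were eif-3.I, at 87.2 FPKM in sig-7 RNAi and 60.6 FPKM in control RNAi (deposited q = 0.0617), and eif-3.E, at 96.4 FPKM in sig-7 RNAi and 68.7 FPKM in control RNAi (deposited q = 0.0712). eif-3.H was the subunit with a lower value in sig-7 RNAi, 30.0 FPKM against 31.5 FPKM in control RNAi. Deposited log2 ratios ran from -0.07 for eif-3.H to 0.53 for eif-3.I, and 9 of the 10 were above 0, whereas 0 of 10 were with the groups scaled to equal totals. In 9 of the 10 the implied SE was 0.20 to 0.25, so on the deposited scale a change of 2-fold in either direction lies outside the 95% interval of each of them. With equal totals that held for 5 of the 9. The deposited locus of eif-3.B, one of the 9, spans 35.4% of the length that WBcel235 gives the gene, so its value may stand for part of it. The remaining subunit gene, eif-3.J, was at 67.3 FPKM in sig-7 RNAi and 55.9 FPKM in control RNAi, and its implied SE of 3.15 allows no such statement. A pair of further eIF3 genes carry older names and were looked up after the values were seen: egl-45 (eIF3 subunit a) was at 71.7 FPKM in sig-7 RNAi and 71.1 FPKM in control RNAi, and cif-1 (subunit m) at 62.4 FPKM in sig-7 RNAi and 55.4 FPKM in control RNAi, neither called.

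**Figure D2:**
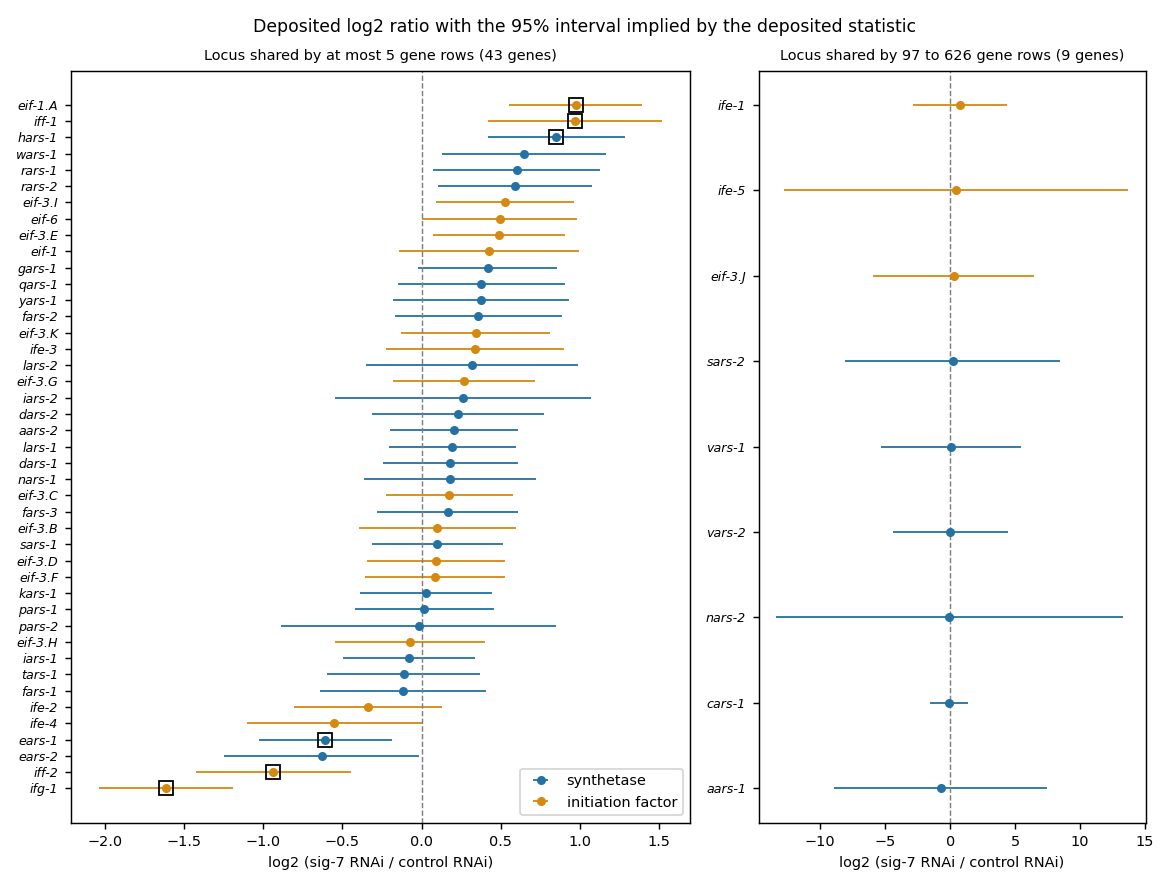
Deposited log2 ratio of sig-7 RNAi over control RNAi for each gene (points) with the 95% interval from the implied SE (bars), for the 43 genes whose locus is shared by at most 5 gene rows (left) and the 9 whose locus is shared by more (right, wider axis). Black squares mark the 6 genes with a deposited q under 0.05, and every gene on the right has an interval that includes 0.

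The largest difference among all 52 genes was in the scaffold of the cap-binding complex. ifg-1, the eIF4G gene (chromosome II, 8218905 to 8221192), was at 29.1 FPKM in sig-7 RNAi and 89.0 FPKM in control RNAi, 3.06-fold lower, with a deposited log2 ratio of -1.61 (implied SE 0.22, q = 2.93e-12), and 5.17-fold lower with equal totals. It ranked 19th of 21 initiation factor genes in sig-7 RNAi and 5th in control RNAi. Set against the median eIF3 gene among the 9 with a small locus, the ifg-1 level was 39.5% in sig-7 RNAi and 146.9% in control RNAi. The deposited locus spans 44.2% of the length that WBcel235 gives the gene, so the value may stand for part of it. inf-1, the gene of the eIF4A helicase that binds eIF4G, lies outside the naming rule but was on the list of pathway genes. It fell as well, to 38.1 FPKM in sig-7 RNAi against 87.3 FPKM in control RNAi (2.29-fold lower, deposited q = 2.24e-04, implied SE 0.28). Its deposited locus of 403 bp is 22.1% of the WBcel235 span.

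Of the 5 eIF4E genes, which encode the cap-binding subunit, 0 were called in the authors' deposited table, against 28.4% of all tested rows. ife-3, the gene closest to eIF4E of other animals, was at 63.8 FPKM in sig-7 RNAi and 50.5 FPKM in control RNAi (deposited q = 0.445). ife-2 was at 53.8 FPKM in sig-7 RNAi and 68.1 FPKM in control RNAi (deposited q = 0.322). ife-4, of the class of eIF4E2, was at 18.1 FPKM in sig-7 RNAi and 26.5 FPKM in control RNAi (deposited q = 0.139). These last 2 genes are the X-linked ones among the 52, and both had the lower value in sig-7 RNAi without passing the test. With equal totals both were among the 21 that passed as lower. Of all tested X-linked rows, 34.4% fell and 3.90% rose, against 14.5% and 12.3% of autosomal rows, and the part of X linkage in these values was not tested. ife-1, which acts in the germ line, was at 136.6 FPKM in sig-7 RNAi and 81.6 FPKM in control RNAi, a 1.67-fold higher value with a deposited q of 0.911 and an implied SE of 1.85. ife-5 was the lowest of all 21 factors, at 3.91 FPKM in sig-7 RNAi and 2.86 FPKM in control RNAi, with an implied SE of 6.75. In order of level, the eIF4E genes ran ife-1, ife-3, ife-2, ife-4, ife-5 in sig-7 RNAi and ife-1, ife-2, ife-3, ife-4, ife-5 in control RNAi.

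Both eIF5A genes were called, in opposite directions. iff-1, the form known from the germ line (chromosome III, 9745823 to 9746072), was at 380.8 FPKM in sig-7 RNAi and 194.6 FPKM in control RNAi, 1.96-fold higher, with a deposited log2 ratio of 0.97 (implied SE 0.28, q = 0.00336). iff-2, the form known from somatic cells (chromosome II, 8559757 to 8560904), was at 47.7 FPKM in sig-7 RNAi and 91.2 FPKM in control RNAi, 1.91-fold lower, with a deposited log2 ratio of -0.94 (implied SE 0.25, q = 0.00131). The level of iff-1 was thus 7.99 times that of iff-2 in sig-7 RNAi and 2.13 times in control RNAi, and iff-1 made up 88.9% of the summed FPKM of both genes in sig-7 RNAi and 68.1% in control RNAi. With the groups scaled to equal totals, iff-1 was 1.16-fold higher in sig-7 RNAi, within its SE (shifted log2 ratio 0.21, SE 0.28), and iff-2 was 3.23-fold lower. The deposited locus of iff-1 spans 250 bp, 18.8% of the WBcel235 length, and no source used here says how the authors divided reads between related genes.

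**Figure D3:**
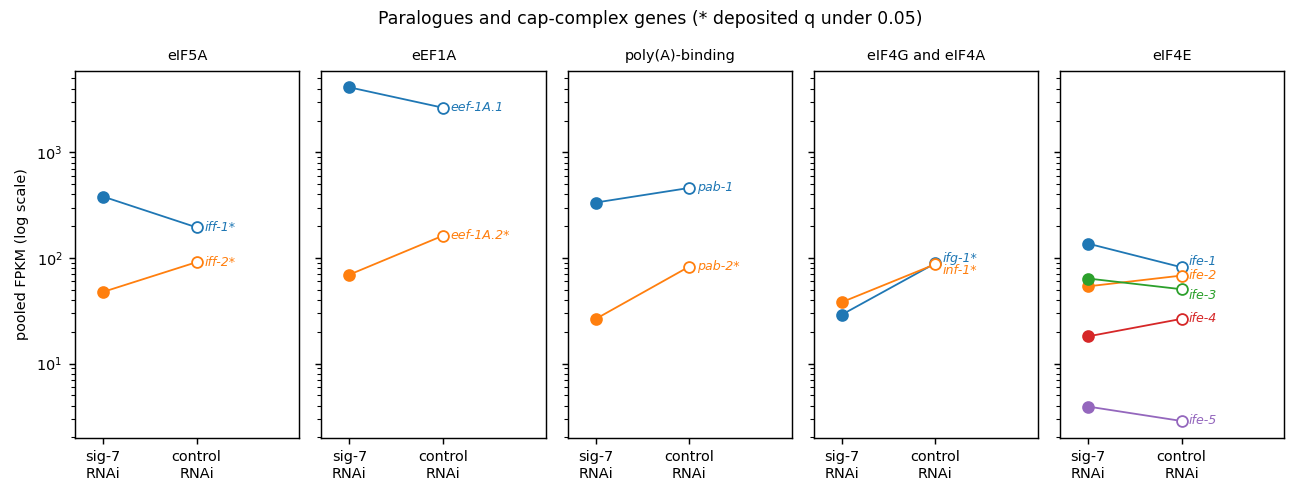
Pooled FPKM (log axis) in sig-7 RNAi (filled points) and control RNAi (open points) of the genes of eIF5A, eEF1A, poly(A)-binding protein, eIF4G with eIF4A, and eIF4E. Asterisks mark a deposited q under 0.05, and the lines of iff-1 and iff-2 slope opposite ways.

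Among the synthetase genes, 1 rose and 1 fell. hars-1, the histidyl-tRNA synthetase gene (on chromosome IV, 10859300 to 10861054), had 69.5 FPKM in sig-7 RNAi and 38.5 FPKM in control RNAi, 1.80-fold higher, with a deposited log2 ratio of 0.85 (implied SE 0.22, q = 8.84e-04). It was the 3rd highest synthetase gene in sig-7 RNAi and the 9th in control RNAi, and with equal totals it was 1.07-fold higher, within its SE (shifted log2 ratio 0.10, SE 0.22). ears-1, the glutamyl-tRNA synthetase gene (chromosome I, 10336404 to 10340802), was at 18.8 FPKM in sig-7 RNAi and 28.7 FPKM in control RNAi, 1.53-fold lower, with a deposited log2 ratio of -0.61 (implied SE 0.21, q = 0.0192), and 2.57-fold lower with equal totals. At q under 0.01, where 6.72% of all tested rows rose and 13.1% fell, 0 of 31 synthetase genes fell, and the other 5 calls stood. Just outside the threshold, wars-1, the tryptophanyl enzyme, was at 20.0 FPKM in sig-7 RNAi and 12.8 FPKM in control RNAi (deposited q = 0.0513), a 1.57-fold higher value.

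None of the 5 synthetase genes highest in control RNAi was called as deposited, against 28.4% of all tested rows. The 5 were rars-1, sars-1, kars-1, aars-2 and lars-1, which charge tRNAs with arginine, serine, lysine, alanine and leucine. All but rars-1 were among the 21 that passed as lower with equal totals. kars-1 was at 64.2 FPKM in sig-7 RNAi and 63.0 FPKM in control RNAi, a deposited log2 ratio of 0.03 (implied SE 0.21) with a 95% interval of -0.39 to 0.44. sars-1 was at 77.7 FPKM in sig-7 RNAi and 72.6 FPKM in control RNAi (deposited log2 ratio 0.10, implied SE 0.21). lars-1 was at 57.1 FPKM in sig-7 RNAi and 49.9 FPKM in control RNAi, and aars-2 at 60.1 FPKM in sig-7 RNAi and 52.0 FPKM in control RNAi, deposited log2 ratios of 0.19 and 0.21. rars-1 was at 117.4 FPKM in sig-7 RNAi and 77.6 FPKM in control RNAi (deposited q = 0.0795), and its locus spans 12.3% of the WBcel235 length. Over the 19 cytosolic synthetase genes, levels ran from 18.4 to 117.4 FPKM in sig-7 RNAi and from 12.8 to 77.6 FPKM in control RNAi, and 16 of the 19 differed by less than 1.5-fold with 1 FPKM added to both values. Those 16 include ears-1, which was 1.53-fold lower in sig-7 RNAi without the added 1 FPKM. The genes of both subunits of the cytosolic phenylalanyl enzyme stood at like levels, with fars-1 at 27.1 FPKM and fars-3 at 32.3 FPKM in sig-7 RNAi, and 29.4 and 28.8 FPKM in control RNAi. fars-1 shares its locus with T08B2.14, so reads of both may not be fully told apart.

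Mitochondrial synthetase genes were lower as a group than cytosolic ones, with overlap between the groups of genes. Against 28.4% of all tested rows, 0 of the 11 mitochondrial genes were called as deposited. For aars-1, nars-2, sars-2 and vars-1, whose locus is shared by more than 5 gene rows, the implied SE was 2.74 to 6.81. A missing call says nothing for them. The other 7 were not called either, against 35.5% of tested rows with a locus shared by at most 5 gene rows. Their levels lay between 2.34 and 23.6 FPKM in sig-7 RNAi, with a median of 8.52 FPKM, and between 3.38 and 18.3 FPKM in control RNAi, with a median of 7.26 FPKM. The cytosolic medians were 35.8 FPKM in sig-7 RNAi and 34.3 FPKM in control RNAi. The assignment to a compartment is background knowledge and not in the files. rars-2 came nearest to a call, at 23.6 FPKM in sig-7 RNAi and 15.7 FPKM in control RNAi (deposited q = 0.0584), followed by ears-2, at 3.92 FPKM in sig-7 RNAi and 6.07 FPKM in control RNAi (deposited q = 0.124).

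For 11 amino acids the table holds the gene of a cytosolic and of a mitochondrial enzyme. The cytosolic level exceeded the mitochondrial one in all 11 and in both groups, by a median of 4.97 times in sig-7 RNAi and 4.93 times in control RNAi. These medians include aars-1, nars-2, sars-2, vars-1 and vars-2, whose locus is shared by more than 5 gene rows and whose values are poorly fixed. The ratio within a set can be compared between the groups whatever their scaling; the examples that follow were chosen after their values were seen, and their equality was not tested. rars-1 and rars-2, for arginine, were 1.51-fold and 1.50-fold higher in sig-7 RNAi as deposited, so that their ratio was 4.97 in sig-7 RNAi and 4.94 in control RNAi. ears-1 and ears-2, for glutamate, were 1.53-fold and 1.55-fold lower in sig-7 RNAi, with a ratio of 4.80 in sig-7 RNAi and 4.73 in control RNAi. Of these 4 genes ears-1 alone passed the test. pars-1 and pars-2, for proline, had a ratio of 7.35 in sig-7 RNAi and 7.17 in control RNAi. The log2 ratio of pars-2 has an implied SE of 0.44, and its deposited locus spans 48.6% of the WBcel235 length. The sets were not all alike. fars-1 was 1.80 times fars-2 in sig-7 RNAi and 2.50 times in control RNAi, and iars-1 was 2.27 times iars-2 in sig-7 RNAi and 2.87 times in control RNAi. The log2 ratio of iars-2 has an implied SE of 0.41. aars-2 was 25.7 times aars-1 in sig-7 RNAi and 13.3 times in control RNAi. The aars-1 ratio has an implied SE of 4.19.

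Set side by side, the synthetase genes showed the smaller median difference between the groups. On the log2((FPKM + 1)/(FPKM + 1)) scale, which understates the change of low genes, the median was 0.17 for synthetase genes and 0.26 for initiation factor genes. That is 0.21 and 0.29 above the median of all tested rows. The median was itself 0.21 for tested rows between 10 and 200 FPKM in control RNAi with a locus shared by at most 5 gene rows. Both families thus lay near such rows, though some members fall outside that range. With the groups scaled to equal totals the medians of both families turned below 0, to -0.56 and -0.48. They then lay -0.0039 and 0.08 from the median of all tested rows. These smaller distances come from adding 1 FPKM after the scaling, which damps the shift in low rows. Without a pseudocount every log2 ratio shifts alike, so the distances stay the same. The deposited medians were 0.18 and 0.27 for the families and -0.0056 for all tested rows with a finite ratio. Without regard to sign, the median size of the log2 difference was 0.19 for synthetase genes, 0.35 for initiation factor genes and 0.55 for all tested rows. Within 1.5-fold lay 28 of 31 synthetase genes (90.3%), 16 of 21 initiation factor genes (76.2%) and 53.6% of all tested rows, and with equal totals and sizes taken from the median of all tested rows these shares were 93.5%, 76.2% and 62.7%. Among genes with a locus shared by at most 5 gene rows, 22 of 25 synthetase genes (88%) and 14 of 18 initiation factor genes (77.8%) lay within 1.5-fold. Of all such tested rows, 53.6% did. The added 1 FPKM shrinks differences, most of all in low genes. Without it, aars-1, ears-1 and ears-2 (1.67-fold, 1.53-fold and 1.55-fold lower) lie beyond 1.5-fold. So does rars-2, just above it at 1.50-fold higher, while no initiation factor gene changes sides. The larger share of synthetase genes within 1.5-fold thus depends on the added 1 FPKM. The difference between the families was not tested, since genes are not replicates. Summed FPKM was 988 in sig-7 RNAi and 858 in control RNAi for the synthetase genes, a ratio of 1.15, and 1934 in sig-7 RNAi and 1486 in control RNAi for the initiation factor genes, a ratio of 1.30.

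**Figure D4:**
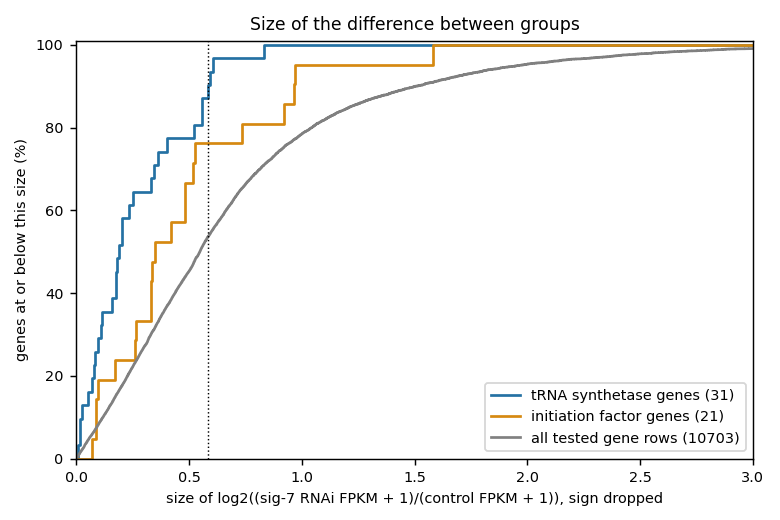
Share of genes (vertical axis, percent) whose log2 difference between sig-7 RNAi and control RNAi, sign dropped and 1 FPKM added to both values, is at or below the size on the horizontal axis, for the 31 synthetase genes, the 21 initiation factor genes and all 10703 tested rows. The dotted line marks 1.5-fold, where the curves stand at 90.3%, 76.2% and 53.6%.

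How far a missing call can be read depends on the locus. In the deposited table some gene rows share 1 very long locus with many others. For 9 of the 52 genes (aars-1, cars-1, nars-2, sars-2, vars-1, vars-2, eif-3.J, ife-1 and ife-5) the locus is shared by 97 to 626 gene rows. The implied SE of their log2 ratios was 0.75 to 6.81, against 0.20 to 0.44 in the other 43, and 0 of the 9 were called. Over the whole table, 3.45% of tested rows with a locus shared by more than 5 rows were called, against 35.5% of the others. With the lowest implied SE among the 9, that of cars-1, a difference under 3.60-fold would not have been called, so no statement on change can be made for these genes. Among the other 43, 6 were called (14.0%), against 35.5% of all such rows and 41.2% of such rows between 10 and 200 FPKM in control RNAi. At their median implied SE of 0.24 a difference of about 1.51-fold was needed for a call. Of the 37 not called, 31 had a 95% interval inside 2-fold in both directions on the deposited scale, and 18 with equal totals.

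**Figure D5:**
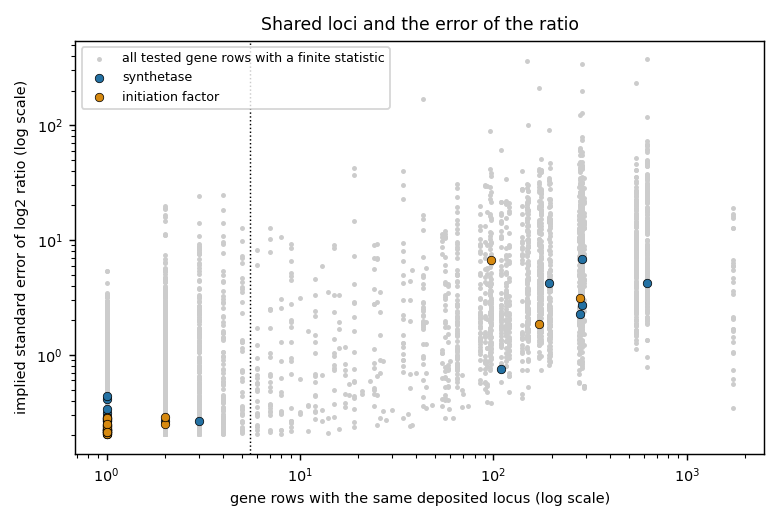
Implied SE of the log2 ratio (vertical log axis) against the number of gene rows that share the deposited locus (horizontal log axis), for synthetase genes, initiation factor genes and, in grey, all tested rows with a finite statistic. Right of the dotted line lie the 9 genes with a widely shared locus, at 0.75 to 6.81.

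The deposited isoform and TSS group tables (isoforms that share a transcription start site) called the same 6 genes in the same directions. Over all tested rows, 10.7% of isoforms rose and 16.4% fell, and 11% of TSS groups rose and 16.9% fell. At the isoform level 7 of the 52 genes had several rows. ife-3 had 3 tested isoforms, whose shares of the gene's FPKM were 42.5%, 49.4% and 8.14% in sig-7 RNAi and 40.2%, 52.4% and 7.41% in control RNAi. The first isoform of nars-1, the asparaginyl enzyme, held 82.3% in sig-7 RNAi and 79.7% in control RNAi. That of tars-1, the threonyl enzyme, held 61.5% in sig-7 RNAi and 65.7% in control RNAi. None of the tested isoforms of these 3 genes was called, and the first one of tars-1 carries the status LOWDATA and was not tested.

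Among genes of the same pathway outside the naming rule, calls went both ways. Of 43 names on the list, 32 were found and tested, of which 5 rose, 6 fell and 21 were not called, beside 11.2% and 17.3% of all tested rows that rose and fell; 7 of those not called were at a locus shared by more than 5 gene rows. Those that fell were inf-1, pab-2, larp-1, eef-1A.2, pek-1 and atf-5. pab-2, a poly(A)-binding protein gene, was at 26.4 FPKM in sig-7 RNAi and 82.7 FPKM in control RNAi, 3.13-fold lower (deposited q = 3.24e-12), whereas its paralogue pab-1 was at 334.3 FPKM in sig-7 RNAi and 459.6 FPKM in control RNAi and was not called (deposited q = 0.0949). larp-1, whose product binds mRNAs of the translation machinery in other animals, was at 28.4 FPKM in sig-7 RNAi and 61.3 FPKM in control RNAi, 2.16-fold lower (deposited q = 3.23e-06). eef-1A.2, a gene of the elongation factor that carries charged tRNA to the ribosome, was at 69.5 FPKM in sig-7 RNAi and 162.3 FPKM in control RNAi, 2.34-fold lower (deposited q = 6.66e-07). Its paralogue eef-1A.1 was at 4123 FPKM in sig-7 RNAi and 2644 FPKM in control RNAi (deposited q = 0.052), and the level of eef-1A.1 was 59.4 times that of eef-1A.2 in sig-7 RNAi and 16.3 times in control RNAi. As for eIF5A, the division of reads between these related genes is not stated.

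Of the 4 genes on the list that act through eIF2 in stress, 2 fell, beside 17.3% of all tested rows. Both are X-linked, and 34.4% of tested X-linked rows fell. pek-1, the gene of the PERK kinase that phosphorylates eIF2, was at 18.8 FPKM in sig-7 RNAi and 36.5 FPKM in control RNAi (deposited q = 7.20e-05), and atf-5, the worm gene related to ATF4, was at 0.591 FPKM in sig-7 RNAi and 3.05 FPKM in control RNAi (deposited q = 0.00391). The atf-5 values are low, and its log2 ratio has an implied SE of 0.69. gcn-2, the gene of the other eIF2 kinase on the list, was at 16.6 FPKM in sig-7 RNAi and 16.2 FPKM in control RNAi and was not called. gcn-1, whose product activates GCN-2, was at 5.52 FPKM in sig-7 RNAi and 11.0 FPKM in control RNAi, with a locus shared by 121 gene rows and a deposited q of 0.273. Of the 6 genes that fell, pab-2, eef-1A.2, pek-1 and atf-5 are X-linked, and these were all 4 X-linked genes tested on the list; the share of X-linked rows that fell is given above.

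The 5 that rose were eef-1B.1, eef-1B.2, abcf-1, eif-2A and eif-2D. eef-1B.1, a gene of the exchange factor for eEF1A, was at 539.4 FPKM in sig-7 RNAi and 357.8 FPKM in control RNAi, 1.51-fold higher (deposited q = 0.0165), and eef-1B.2 was 1.59-fold higher (deposited q = 0.0265). The ABCF gene abcf-1 was 1.48-fold higher (deposited q = 0.0373). eif-2A and eif-2D are listed in the deposited table as E04D5.1 and C25H3.4, and encode factors that can bring the initiator tRNA to ribosomes apart from eIF2. They were 1.64-fold and 1.70-fold higher, at 65.3 and 26.2 FPKM in sig-7 RNAi and 39.9 and 15.4 FPKM in control RNAi (deposited q = 0.0268 and 0.00915). With the groups scaled to equal totals, eif-2D was 1.01-fold higher in sig-7 RNAi, while the ratios of the other 4 turned below 1 and lay between 0.879 and 0.970.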

How the data were processed

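RNA of 4 libraries (2 sig-7 RNAi, 2 control RNAi) was depleted of ribosomal RNA and made into stranded total RNA libraries, per the labels' protocols. Per the submitters' processing notes, Cufflinks 2.1.1, Cuffdiff 2.0.2, TopHat2 and FastQC were run, on build ce10. No source used here gives their parameters, the annotation, the use of strand or the treatment of shared reads. The authors deposited gene, isoform and TSS group tables with, per the file headers, 1 pooled FPKM per group, the log2 ratio (infinite values coded as a limit number), a test statistic that serves as a score, a p-value and a q-value.

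Genes were taken by name pattern; rars-1 stands in the table under that name and not as rrt-1. The members, the lists and the comparisons were chosen with earlier results of these data known. Named genes are all members called at q under 0.05, the 5 highest of each family, paralogue sets and pathway genes called. Medians used a pseudocount of 1 FPKM. No test over samples could be made from pooled values, and depth is unknown, so no interval or floor from counts is given. Spans come from RefSeq on WBcel235, a later build, used for lengths only; 42 genes with a locus shared by at most 5 gene rows had one on the same chromosome. Starts were shifted to base 1, since end minus start was 21 for 3801 lone 21U RNA loci. Python 3.11.15, pandas 2.3.3 and SciPy 1.17.1 were used, and the code for calls and implied errors was run on simulated data. Those data were built with the statistic as a log ratio over its SE, so they could not test that reading of the deposited statistic. Alternatives were q under 0.01, the isoform and TSS group tables, a floor of 1 FPKM, pseudocounts of 0.1 and 0, equal totals (of the ratio alone and, added later, of the statistic), and leaving out X-linked genes.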

Additional observations from a re-analysis of the deposited data

How the results depend on the processing

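With FPKM scaled to equal totals before the pseudocount, the median log2 ratio turned to -0.56 for synthetase genes and -0.48 for initiation factor genes, by construction of that scaling. With the statistic recomputed on that scaling at the implied SE, 0 synthetase genes and 0 initiation factor genes passed as higher, and 12 and 9 passed as lower, so the 3 rises are not called there; keeping the deposited q and asking only for the sign leaves all 6 calls. At q under 0.01, 0 synthetase genes fell, since the q of ears-1 is 0.0192. The counts of the other calls were the same at q under 0.01 and in the isoform and TSS group tables. Leaving out X-linked genes, rows with several names, genes under a mean of 1 FPKM or, chosen after the data were seen, the 9 genes at widely shared loci could not change a count, since none of the 6 called genes is among them. Under the alternatives other than equal totals, the median log2 ratio lay between 0.17 and 0.21 for synthetase genes and between 0.22 and 0.33 for initiation factor genes. Leaving out a library was not possible with pooled values. No paired analysis was possible because each group has 1 pooled value and no column for a library. The unknown spread between libraries limits every value, and for 8 of 42 genes, ifg-1 and iff-1 among them, the locus covers under 50% of the annotated span.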

Other observations

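The eIF2 and eIF2B genes, which supply and recycle the complex that carries the initiator tRNA, are listed under sequence names and were looked up after the values of other genes were seen. eif-2alpha (Y37E3.10) was at 79.8 FPKM in sig-7 RNAi and 77.7 FPKM in control RNAi, and eif-2gamma (Y39G10AR.8) at 95.7 FPKM in sig-7 RNAi and 79.7 FPKM in control RNAi, neither called, the second with a locus shared by 43 gene rows. iftb-1, the eIF2 beta gene, was at 176.9 FPKM in sig-7 RNAi and 111.4 FPKM in control RNAi, with a locus shared by 150 gene rows and a deposited q of 0.920. Of the eIF2B genes, eif-2Bbeta (Y47H9C.7) rose, at 27.3 FPKM in sig-7 RNAi and 16 FPKM in control RNAi (deposited q = 0.0163), and was 1.01-fold higher with the groups scaled to equal totals. eif-2Balpha was at 12.2 FPKM in sig-7 RNAi and 13.5 FPKM in control RNAi, eif-2Bdelta at 32.0 FPKM in sig-7 RNAi and 29.2 FPKM in control RNAi, and eif-2Bepsilon at 32.9 FPKM in sig-7 RNAi and 24.4 FPKM in control RNAi, none of them called. ppp-1, the remaining eIF2B gene, was at 24.7 FPKM in sig-7 RNAi and 25.0 FPKM in control RNAi.

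Names carry some uncertainty. The row named yars-1, at 15.7 FPKM in sig-7 RNAi and 12.2 FPKM in control RNAi, lies on chromosome IV, where WBcel235 places yars-2, and it was given no compartment for that reason. mars-1, the methionyl enzyme, has its own row in the isoform table, at 15.6 FPKM in sig-7 RNAi and 18.8 FPKM in control RNAi (deposited q = 0.474), whereas the matching row of the gene table carries the name of a 21U RNA.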
